A study of Homo sapiens with 18 samples.

Results

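The gasdermins are a family of pore-forming proteins encoded by GSDMA, GSDMB, GSDMC, GSDMD and DFNA5, the last of which is now named GSDME. All 5 genes were listed in each of the 3 knockout-against-WT tables of the series, out of 19401 genes listed in at least 1 table. They were found by symbol and joined by Entrez ID (284110, 55876, 56169, 79792 and 1687 in the order above). The family was put forward for description with its measured fold changes in these samples already known, so no comparison below was tested.

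A gasdermin is held inactive by its C-terminal domain. A protease cuts the linker, the freed N-terminal domains assemble into a ring in the plasma membrane, and cytokines leave through the pore before the cell lyses, a form of death called pyroptosis. GSDMD is the substrate of the inflammatory caspases, GSDMB of granzyme A and GSDMC of CASP8. GSDMA is known from skin and other surface epithelia.

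RNA was sequenced from MCF10A, an immortalized, non-tumorigenic human mammary epithelial line, and from MCF10A clones in which CRISPR-Cas9 had disrupted CBFB or RUNX1. RUNX1 is a DNA-binding transcription factor that pairs with CBFB, and the tables set each knockout against its WT. The 18 samples formed 5 groups, namely CBFB KO (3) with its own CBFB WT (3), and RUNX1 KO1 (4) and RUNX1 KO2 (4) with the RUNX1 WT of that experiment (4). The CBFB KO group was 1 clone and KO1 and KO2 were 1 clone each, none of the groups carried a treatment, and effects of a knockout and of the choice of clone cannot be told apart.

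The value for each gene was the authors' mean normalized count over all libraries of a table, knockout and WT together. The CBFB table thus pooled 6 libraries and each RUNX1 table pooled 8. No value per library was at hand, so the replicate spread is not known, and intervals here are exact Poisson 95% intervals that treat normalized counts as reads and cover counting error only. As the groups of a table are of equal size, a group's own mean can lie anywhere between 0 and 2 times the pooled mean.

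The tables listed 18526 (CBFB), 18517 (KO1) and 18117 (KO2) genes, with summed means of 20214400, 18050400 and 16467400. Size factors read from genes with a single read showed 1 shallow library in the CBFB table (0.657, the others from 1.03 to 1.18) and 1 in the KO2 table (0.562, the others from 0.987 to 1.29), while those of the KO1 table ran from 0.921 to 1.10. Which library this was in the CBFB table is not known. By the labels both RUNX1 tables share their WT libraries, and no factor of the KO1 table was below 0.921. If those labels hold, the library at 0.562 was a KO2 library. It then stands on the KO2 side of the comparison of the clones below. No value could be given without the shallow libraries. Of the 10531 genes whose means reached 100 in both of the remaining tables, 338 were not listed in the KO2 table as used here, PYCARD, CHMP2A and KRT14 among them, and 13 of 10174 were not listed in the CBFB table, IL1A among them. The pooled means of the targeted genes were 897 for CBFB in its own table and 922 and 839 for RUNX1 in the KO1 and KO2 tables, which cannot check the labels because WT reads are part of each.

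The labelled cell type was checked against its markers. All 8 basal epithelial markers were listed in the CBFB and KO1 tables and 7 in the KO2 table. KRT5, a basal keratin, had means of 87894, 101688 and 95221 in the CBFB, KO1 and KO2 tables. TP63, the master regulator of basal epithelium, had means of 1606, 953 and 730. KRT17, another basal keratin, had 10526, 47912 and 68408, while EGFR had 3588, 1459 and 1184. Luminal markers were present too, 5 of 6 being listed in each table. The luminal keratins KRT8 and KRT18 had means of 6334, 8895 and 11418 and of 14607, 13778 and 17998, GATA3 had 216, 258 and 270.5, FOXA1 had 274, 231 and 210.2 and ESR1 had 77.6, 59.9 and 53.9. The markers of both lists therefore differed between tables, and their part in the values below was not tested. PTPRC, a marker of leukocytes, and CD3E, a marker of T cells, stayed at or below a mean of 0.463 wherever listed. COL1A2, a fibroblast collagen, was listed in the CBFB table alone at 0.145. COL1A1 and CD68 had means of 284 and 303 in the CBFB table, so not every marker on the fibroblast and immune lists was near 0.

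DFNA5 drew the most normalized counts of the 5 genes in every table, before any correction for transcript length. It stood at 933 (95% interval 909 to 958) for the CBFB libraries, 870 (850 to 891) for KO1 with WT and 779 (760 to 799) for KO2 with WT. As a share of all normalized counts in the table, these were 46.2, 48.2 and 47.3 parts per 1000000 (ppm), a narrow range across experiments. Of the genes listed in a table, 73.9%, 76.2% and 75.6% lay below DFNA5. The gene was first described for a dominant hearing loss.

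GSDMC, the member cut by CASP8, drew the next most. Its CBFB, KO1 and KO2 table means were 669 (649 to 690), 614 (597 to 631) and 539 (523 to 555). The shares of 33.1, 34.0 and 32.7 ppm were again close to each other.

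GSDMD, the main executioner downstream of inflammasomes, had CBFB, KO1 and KO2 table means of 411 (395 to 427), 398 (384 to 412) and 455 (440 to 470). Its shares were 20.3, 22.0 and 27.6 ppm. The KO2 table held the highest of the 3 values although its summed mean was the lowest.

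GSDMA differed most between the experiments. Its mean was 122 (113 to 131) in the CBFB table against 245 (234 to 256) for KO1 and 201 (192 to 212) for KO2. The shares were 6.03, 13.6 and 12.2 ppm, so that the RUNX1 tables lay 2.25-fold and 2.03-fold above the CBFB table. Over the 12914 genes whose means reached 10 in every table, 98.4% had a lower KO1-to-CBFB ratio than GSDMA and 96.7% a lower KO2-to-CBFB ratio. The knocked-out gene, the WT libraries and the experiment all differ between these tables and cannot be told apart, and fewer cells expressing a gene cannot be told from less RNA per cell in bulk samples.

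GSDMB, the member cut by granzyme A, drew the fewest counts and had its highest value in the CBFB table. Its CBFB table mean was 28.5 (24.4 to 33.1), against 14.6 (12.1 to 17.5) for KO1 and 13.3 (10.9 to 16.1) for KO2. The shares of 1.41, 0.811 and 0.807 ppm were 1.74-fold (KO1) and 1.75-fold (KO2) higher in the CBFB table. Only 5.16% of genes had a lower KO1-to-CBFB ratio and 6.81% a lower KO2-to-CBFB ratio. About 171, 117 and 106 normalized counts lay behind these means. For GSDMC, GSDMD and DFNA5 the corresponding log2 ratios ran from -0.02 to 0.44, beside medians over all genes of -0.08 (KO1) and -0.05 (KO2).

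**Figure D1:**
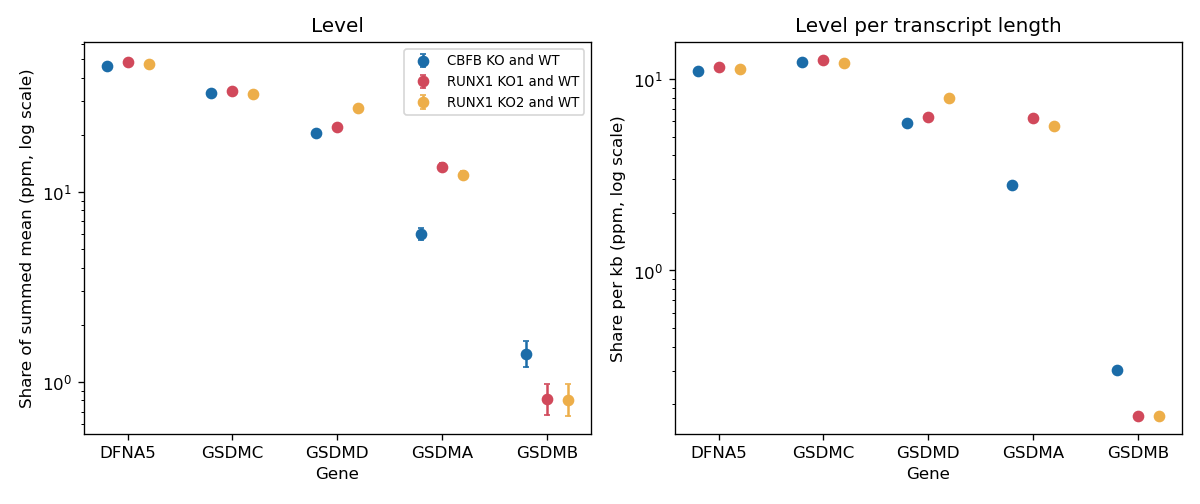
Level of the 5 gasdermin genes in the 3 tables, as a share of the table's summed mean normalized count (left, with Poisson 95% intervals for counting error) and the same share per kb of the longest transcript (right), both on log axes. Each point is the authors' mean over the knockout and WT libraries of a table. GSDMA is lower and GSDMB higher in the CBFB table (6.03 and 1.41 ppm) than in the RUNX1 tables, while DFNA5 and GSDMC nearly coincide across tables.

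The 5 genes together took 107, 119 and 121 ppm of the normalized counts in the CBFB, KO1 and KO2 tables. DFNA5, GSDMC and GSDMD made up 93.0%, 87.9% and 89.2% of that sum. GSDMA made up 5.63% of it in the CBFB experiment and 11.4% (KO1) and 10.1% (KO2) in the RUNX1 experiment. DFNB59 (PJVK), the remaining and most distant gasdermin, had means of 13.9, 8.95 and 10.0.

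Levels of different genes were compared per kb of transcript, using the longest transcript in GENCODE 29. On this scale GSDMC (12.2, 12.5 and 12.1 ppm per kb in the CBFB, KO1 and KO2 tables) and DFNA5 (11.0, 11.5 and 11.3) were nearly level. GSDMD followed at 5.87, 6.37 and 7.98, then GSDMA at 2.79, 6.27 and 5.65, with GSDMB last at 0.303, 0.174 and 0.173. In the KO1 table GSDMD and GSDMA differed by less than the 95% counting interval of GSDMA. GSDMB has 15 annotated transcripts and a longest one of 4655 bases against a median of 1427, so its level per kb depends strongly on which form the cells use. With median lengths DFNA5 moved above GSDMC in the CBFB table (30.8 and 22.0), with GSDMD at 20.8, GSDMA at 3.90 and GSDMB at 0.987. In the KO1 table GSDMD (22.55) and GSDMC (22.61) were then nearly level below DFNA5 (32.1), and in the KO2 table GSDMD (28.3) stood above GSDMC (21.8) and below DFNA5 (31.5). The order of the upper members therefore rests on the choice of transcript and on the table, whereas GSDMB was the lowest either way. GSDMA came next lowest, but with longest transcripts its place below GSDMD in the KO1 table was within counting error.

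GSDMA and GSDMB lie near each other on chromosome 17 with ORMDL3, a regulator of sphingolipid synthesis, between them. ORMDL3 had means of 551, 599 and 605 in the CBFB, KO1 and KO2 tables, and PSMD3, a proteasome subunit on the far side of GSDMA, had means of 4513, 4589 and 4353. ZPBP2, on the far side of GSDMB, was barely listed (0.254, 0.984 and 0.514). Neither ORMDL3 nor PSMD3 showed a difference between experiments of the size seen for GSDMA or GSDMB. GSDMC and GSDMD are both on chromosome 8 and DFNA5 is on chromosome 7. In GENCODE 29 the exons of none of the 5 members overlapped those of another gene on either strand.

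The 2 RUNX1 clones were compared through their tables. By the labels a single WT group of 4 libraries serves both, so 2 times the difference of the pooled means gives the difference between the mean levels of KO1 and KO2 once the tables are put on 1 scale. The KO2 means were multiplied by 1.07, the median ratio of the means over the 10174 genes whose means reached 100 in both. GSDMD was lower in KO1 than in KO2 by this measure. Its scaled table means were 398 and 489, and KO1 minus KO2 was -182 normalized counts, with a counting error of at most 21.5 (SE). The log2 ratio of the table means was -0.30, and 8.47% of the 13123 genes whose means reached 10 in both had a lower one.

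GSDMA stood on the opposite side. Its scaled table means were 245 and 216, and KO1 minus KO2 was 57.1 normalized counts (counting SE at most 15.5). The log2 ratio was 0.18, above that of 93.0% of genes. GSDMC (70.0, SE at most 24.9), DFNA5 (65.8, SE at most 29.7) and GSDMB (0.708, SE at most 3.87) lay nearer the middle, with log2 ratios of 0.08, 0.06 and 0.04. The sizes depended on the scale. Without scaling, KO1 minus KO2 was -114 for GSDMD, 87.1 for GSDMA, 150.2 for GSDMC, 182 for DFNA5 and 2.69 for GSDMB, and with the ratio of summed means it was -201 for GSDMD, 48.3 for GSDMA, 46.6 for GSDMC, 32.0 for DFNA5 and 0.132 for GSDMB. The signs were the same under both. The summed means hold genes not listed in all 3 tables, 6.94% of the KO1 sum and 0.0471% of the KO2 sum. The ratio of summed means is raised by this imbalance, which lowers KO1 minus KO2 on that scale. With no value per library, none of these differences could be set against the spread between replicates.

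No member's table means differed by 1.5-fold in either direction. Over all genes, 0.229% were at least 1.5-fold higher in the KO1 table and 0.739% at least 1.5-fold higher in the KO2 table. These were 30 and 97 genes, 25 and 124 with the ratio of summed means, and 44 and 45 without scaling. The fold between the scaled table means of GSDMD, the farthest member, was 1.23. The median log2 ratio of the 5 members was 0.06, beside 0.00 over all genes, whose middle 90% ran from -0.37 to 0.20. As WT libraries are 4 of the 8 behind each table, a ratio of table means understates the ratio between the clones.

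**Figure D2:**
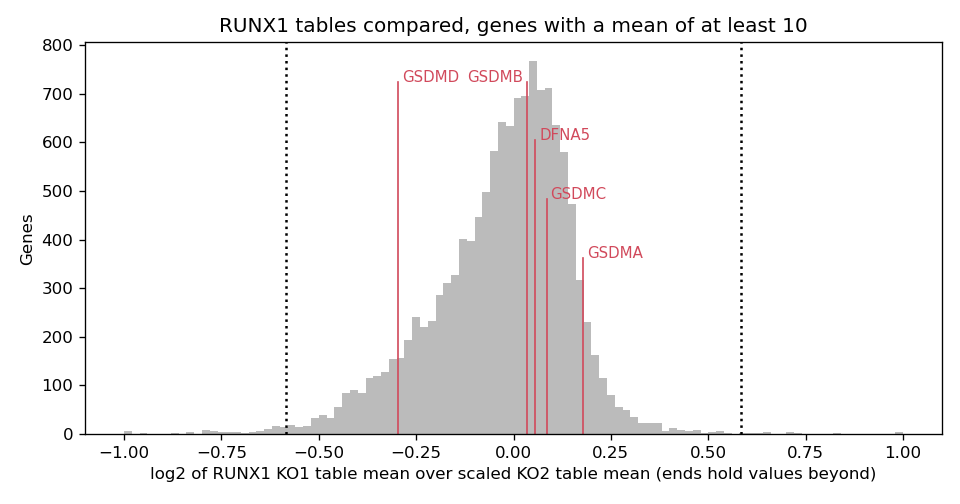
Histogram of the log2 ratio of the RUNX1 KO1 table mean to the scaled KO2 table mean over 13123 genes, with the 5 gasdermin genes as red lines whose heights carry no meaning and 1.5-fold as dotted lines. GSDMD (-0.30) sits in the left flank and GSDMA (0.18) in the right, and all 5 lie inside the dotted lines.

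The other genes of the pathway were taken from 5 lists with 33 genes, of which 27, 29 and 27 were listed in the CBFB, KO1 and KO2 tables. In both RUNX1 tables, 21 had a mean of at least 10. Of these, 2 were at least 1.5-fold higher in the KO1 table and 0 at least 1.5-fold higher in the KO2 table. Over all genes with such means the shares were 0.229% and 0.739%. The lists were chosen with earlier results of these data known, so the counts are no test of the pathway.

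Sensors assemble the inflammasome that activates CASP1, and few of them were well expressed. NLRP3 had means of 32.3, 74.5 and 83.5 in the CBFB, KO1 and KO2 tables, and NLRP1, a sensor of epithelia, had 67.1, 76.3 and 59.1. CARD8 stood at 208, 136 and 124. PYCARD, the adaptor that joins sensor and caspase, had means of 164 in the CBFB table and 324 in the KO1 table. AIM2, which binds cytosolic DNA, stayed at or below 1.98, NLRC4 at or below 6.43 and MEFV at or below 6.86. NLRP6 was listed in the KO2 table alone, at 0.113. The median log2 ratio of KO1 to KO2 table means was 0.02 over the 3 sensors with a mean of at least 10.

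Among the proteases that cut gasdermins, 3 had a mean of at least 10 in both RUNX1 tables, and all of them were caspases. CASP1 had means of 584, 574 and 592, and CASP4, the sensor of intracellular lipopolysaccharide that cuts GSDMD, had 1570, 1446 and 1383. CASP8, which cuts GSDMC, had 1012, 707 and 556, and 97.2% of genes had a lower KO1-to-KO2 ratio than its log2 value of 0.24. CASP5 was at most 0.368, GZMB, a cytotoxic lymphocyte protease, was listed in the KO1 table alone at 0.120, and GZMA, which cuts GSDMB, ELANE and CTSG were in no table. None of these 3 was past 1.5-fold between the RUNX1 tables, and their median log2 ratio was -0.04.

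Both genes past 1.5-fold were cytokines of the interleukin-1 family, which leave cells through gasdermin pores. IL1B had CBFB, KO1 and KO2 table means of 997, 247 and 130, a log2 ratio of 0.82 between the RUNX1 tables. IL1A had means of 937 and 553 in the KO1 and KO2 tables, a log2 ratio of 0.66. IL18 went the other way, with means of 2544, 3252 and 3701 and a log2 ratio of -0.29, close to that of GSDMD. IL33 stayed at or below 2.40. HMGB1, a nuclear protein released at lysis, had means of 16209, 12509 and 11720. The median over the 4 cytokines with a mean of at least 10 was 0.32.

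NINJ1, which ruptures the plasma membrane after pore formation, had means of 408, 529 and 618, and its log2 ratio between the RUNX1 tables was -0.33. CHMP4A and CHMP4B, parts of the ESCRT machinery that repairs pores, had log2 ratios of -0.41 and -0.24. VPS4A and VPS4B, the ATPases of that machinery, had -0.10 and 0.11. None of the 6 rupture and repair genes was past 1.5-fold, and their median was -0.17. The palmitoyltransferases ZDHHC5 and ZDHHC9, which modify GSDMD, had means of 3159, 2574 and 2298 and of 1199, 1066 and 965. LAMTOR1, a Ragulator subunit needed for GSDMD pores in macrophages, had 1578, 1587 and 1758. The median log2 ratio of the palmitoylation and Ragulator list was -0.04, with 0 of 5 genes past 1.5-fold.

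**Figure D3:**
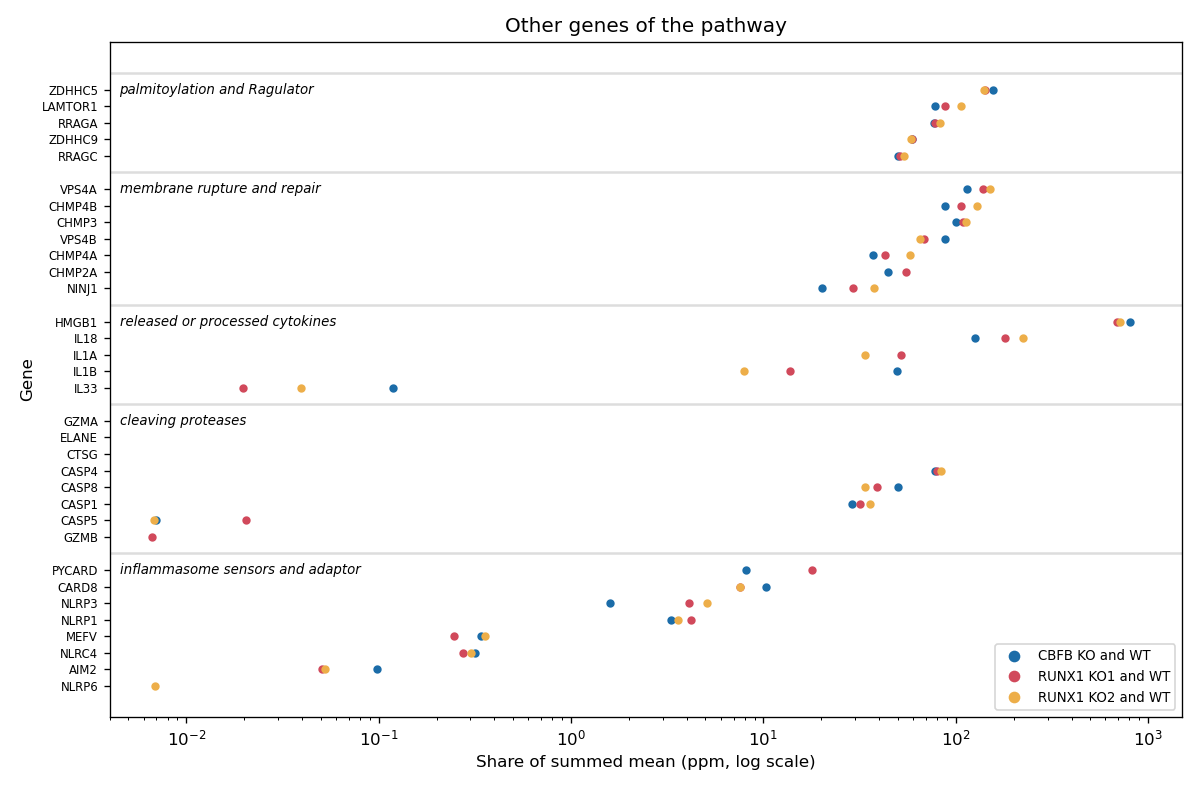
Share of the table's summed mean normalized count (ppm, log axis) for the other genes of the pathway, grouped by role, with a point for each table in which the gene was listed. IL1B lies at 49.3 ppm in the CBFB table and at 13.7 and 7.91 ppm in the KO1 and KO2 tables, and genes without a point (GZMA, ELANE, CTSG) were in no table.

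GSDMA is known from keratinocytes, and markers of their terminal differentiation were therefore set beside it. IVL, a cornified envelope precursor, had means of 199, 857 and 692 in the CBFB, KO1 and KO2 tables, lowest in the same table as GSDMA. KRT10 had 499, 469 and 496 and FLG, the filaggrin precursor, had 8.90, 8.11 and 4.61. LOR and KRT1 did not exceed 0.507. The summed share of the markers listed in all tables was 35.0, 73.9 and 72.5 ppm. Most of the difference between experiments came from IVL alone (9.85, 47.5 and 42.0 ppm), as KRT10 had 24.7, 26.0 and 30.1 ppm. The summed share was thus lowest in the same table as GSDMA, but mostly through IVL. KRT10 and FLG showed no difference between experiments of the size seen for GSDMA. The part of these markers in the GSDMA values was not tested.

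The genes whose levels ran most like each member over the 3 tables were found by the Euclidean distance of centered log2 shares among 12914 genes. For GSDMA these were ATL1 (distance 0.06), CHST2 (0.06) and LAMA2 (0.07). For GSDMB they were C16orf52 (0.0044), POLI (0.0075) and SCAMP1 (0.0083). GSDMD lay nearest to RNASEH2A, LIF and SMIM20, GSDMC to TFCP2, GLMN and RNF123, and DFNA5 to TRA2A, SH3BGRL and GPRASP2, at distances of 0.0021 to 0.0122. With 3 points per gene, such likeness is a description of these tables. No gene was as close to GSDMA as the nearest ones were to the other members.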

How the data were processed

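RNA-seq libraries of MCF10A cells were processed by the authors. The submitters' processing notes name Trimmomatic, STAR and hg19, without versions, and the authors' deposited tables were made with DESeq2. Library preparation is given as an mRNA kit in the labels but as rRNA depletion in the study's methods, and the sources do not settle this. Each of the 3 deposited tables holds the authors' mean normalized count per gene over the libraries compared, a signal that is no raw count. The other 5 value columns hold the authors' log2 fold change, its SE, the test statistic and p-values, and were not used. There were 0 columns of per-sample values.

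Genes were joined by Entrez ID (Python 3.11.15, pandas 2.3.3). Shares are the mean divided by the summed mean of the table, times 1000000. Transcript lengths came from GENCODE 29 and gene order from RefSeq GRCh38.p14, and no coordinates are given because the builds differ. Normalized means of the RUNX1 tables were scaled by their median ratio, a step tested on simulated data. Size factors were read from the repeated values of genes with 1 read. The best match of 4 factors between the RUNX1 tables had a common ratio of 1.06 with an SD of 0.137%, and other matches came nearly as close (0.138%). No statistical test between groups was run. Named genes were the members, DFNB59, the pathway and marker lists, neighbors of GSDMA and GSDMB, the targeted genes and the 3 genes most like each member. Members and lists were chosen with earlier results of these data known. Some genes of the lists are not reported here.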

Additional observations from a re-analysis of the deposited data

How the results depend on the processing

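No paired analysis was possible because the values are means over all libraries of a table, and for the same reason leaving out each replicate in turn was not run. Of 61 alternative values, 31 were classed as unmoved and 30 as moved, and 0 changed sign. Only the KO1 minus KO2 differences could change sign, because shares and gene counts cannot be negative. A move was set against the Poisson interval for shares and against the counting SE for differences. Counts of genes past a fold have no such counting error, so their part of the tally cannot be read in this way. Scaling to the median gene among those whose means reached 100 gave shares (ppm) in the KO1 table of 14.9 (GSDMA), 37.3 (GSDMC), 24.2 (GSDMD) and 52.9 (DFNA5), and in the KO2 table of 34.3 (GSDMC), 28.98 (GSDMD) and 49.6 (DFNA5). Summing only over genes listed in all 3 tables, an alternative chosen after seeing the data, gave 14.6 (GSDMA), 36.5 (GSDMC), 23.7 (GSDMD) and 51.8 (DFNA5) ppm in the KO1 table, whose sum holds 6.94% from genes absent from another table. The CBFB sum holds 5.23% from such genes. The CBFB shares given above are not on this basis and cannot be set directly against these values. Without scaling of the RUNX1 tables, KO1 minus KO2 was 87.1 for GSDMA, 150.2 for GSDMC, -114 for GSDMD and 182 for DFNA5, and with the ratio of summed means it was 32.0 for DFNA5. The ratio of summed means is raised by genes not listed in the KO2 table. Genes past the fold numbered 30 higher in the KO1 table and 97 higher in the KO2 table at 1.5-fold, 154 and 923 at the lower fold of 5 to 4, and 4 and 5 at 2-fold. Without a filter on low means they numbered 614 and 880, and with a mean of at least 100 they numbered 7 and 15. At 1.5-fold they numbered 25 and 124 with the ratio of summed means and 30 and 93 with the median ratio over means of at least 10. With the ratio of the 4 matched size factors, an alternative that was not planned, they numbered 31 and 76. Without scaling they numbered 44 and 45. The excess toward the KO2 table was thus present under each scale tried and nearly absent without scaling. The number of libraries, the shallow library in each of 2 tables and the lack of values per library limit all of these values.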
